A study of Mus musculus with 6 samples.

Results

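The comparison sets FGF2-treated against BMP4-treated cells of PA6, a mouse line of bone marrow stroma. It uses the 4 arrays of the stimulated cultures out of 6 in the series, chosen by their labels: 2 replicates with 20 ng/ml of recombinant FGF2 and 2 with 10 ng/ml of recombinant BMP4, the doses being those of the labels. All cultures were confluent monolayers kept for 3 h in serum-free medium, and by the notes with the labels each biological replicate had a well of every condition, so that FGF2 and BMP4 arrays of the same replicate number were compared in pairs. The remaining 2 arrays, of cells without growth factors (-GFs), took no part in the test and are given as a reference level. The array was the Illumina MouseWG-6 v2.0, on which the brightness of a probe's beads measures a transcript.

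FGF2 acts through receptor tyrosine kinases that activate the RAS-ERK cascade, whose early targets include transcription factors of the EGR and AP-1 families and the phosphatases and adaptors that shut the cascade down. BMP4 binds serine/threonine kinase receptors that phosphorylate SMAD1 and SMAD5, and the ID genes, inhibitors of basic helix-loop-helix factors, are their classical direct targets. Bone marrow stromal lines such as PA6 support other cells through secreted factors, and a direct comparison of both stimuli shows in which of these factors the treated feeder layers differ.

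After 3 h, the transcription factor gene EGR2 was 19.6-fold higher with FGF2 than with BMP4, and the RAS-like GTPase gene RASL11B was 11.8-fold lower. FGF2-treated cells had more mRNA of several ERK targets and feedback inhibitors and of some secreted and ribosome biogenesis factors. BMP4-treated cells had more of ID1, ID2, ID3, ID4, SNAI2 and FGFR2 and of a minority of the tested WNT pathway genes and FOXO targets. Of 11545 genes tested, 410 (3.55%) were called, meaning an absolute log2 difference over 1 and a Benjamini-Hochberg adjusted p under 0.1 in limma. Of these, 268 (2.32% of the genes tested) were higher with FGF2 and 142 (1.23%) were lower. Counts in the gene lists below are to be read beside these shares. All 410 differed in the same direction in both pairs, and in 409 the FGF2 and BMP4 arrays did not overlap, the exception being ANGPT4, against 73.4% and 53.6% of all genes tested. The 410 were called on these same arrays for a large mean difference, from which such agreement largely follows, so it is no separate support. The median absolute difference was 0.23 over all genes and 1.24 over the called ones. A log2 difference above 2 was reached by 40 genes higher with FGF2 and 11 lower with FGF2.

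The differences of pair 1 and pair 2 had a Pearson's r of 0.785 across genes, which are not independent replicates. Without the replicate pairing in the model, 253 genes were higher and 129 lower, and all 382 were among the 410. The standard error was similar for most genes (median 0.15), since limma's shared estimate of the spread outweighs the single residual degree of freedom. No gene with an absolute difference over 1 missed the adjusted p, so that the fold threshold alone set the calls. The adjusted p alone was passed by 4021 genes (34.8%), of which 1937 (16.8%) were higher and 2084 (18.1%) lower with FGF2, but by 1115 without the pairing. In fits with 3 arrays, which cannot keep the pairing, 66 genes were higher and 12 lower without FGF2 replicate 1, and 22 higher and 5 lower without FGF2 replicate 2, against 329 and 180 without BMP4 replicate 1 and 315 and 165 without BMP4 replicate 2. The lone array of a group is there assumed to vary like the others. With the -GFs arrays added and the pairing kept, an alternative chosen after seeing the data, leaving out each of the 4 arrays gave between 405 and 475 called genes, and 78 of the 112 called genes named below were called in all 4 of these fits, against 16 in all 4 fits with 3 arrays, in which 74 kept an absolute difference over 1. Of the 410 genes, 343 to 368 were called in each of the 5-array fits.

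**Figure D1:**
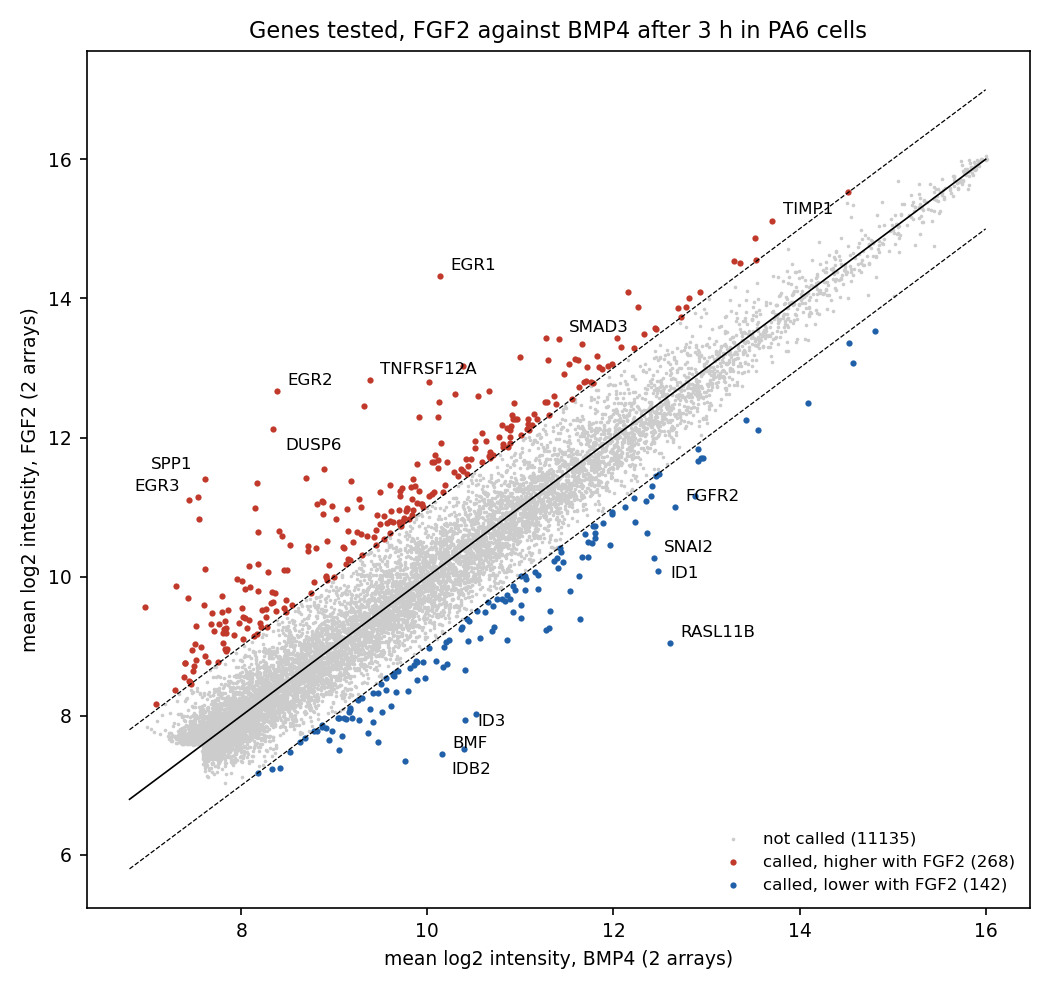
Mean log2 intensity with BMP4 (x axis) and with FGF2 (y axis) of the 11545 genes tested, each over 2 arrays. The solid line marks equal means and the dashed lines an absolute log2 difference of 1; the 268 red genes were called higher with FGF2 and the 142 blue ones lower.

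EGR2 had log2 intensities of 12.53 and 12.81 with FGF2 and of 8.19 and 8.57 with BMP4. EGR1, another zinc finger factor of the family, read 14.32 on both FGF2 arrays and 9.55 and 10.72 with BMP4. Both genes were far higher on each FGF2 array than on either BMP4 array, and their -GFs arrays lay near the BMP4 ones, at 8.34 and 8.74 for EGR2 and at 9.99 and 10.30 for EGR1. The log2 difference was 4.29 for EGR2 (95% interval 3.99 to 4.59, adjusted p = 2.36e-16) and 4.18 for EGR1 (95% interval 3.80 to 4.57, adjusted p = 2.73e-14). The brighter EGR3 probe was not detected on the BMP4 arrays. Its signal differed at least 11.6-fold in favor of FGF2, the bound being taken against the lowest detected signal of each BMP4 array. A further EGR3 probe, dimmer and detected, gave a difference of -0.04, so the probes of this gene do not show the same response.

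Among 21 tested immediate early transcription factors and related genes of 28 on the array, 11 were called higher with FGF2 and none lower (median log2 difference 1.21, against -0.02 over all genes tested). The 11 include EGR3, which passed detection through FGF2 alone and so was bound to differ. Besides the EGR genes, these were IER3, an early response gene linked to cell survival (2.65), the AP-1 subunits JUN (1.80), JUNB (1.57), FOS (1.44) and FOSL2 (1.41), the mRNA decay factor ZFP36 (1.45), and the zinc finger factors KLF2 (1.39) and KLF4 (1.21). FOS read 8.69 and 9.81 with FGF2 and 7.26 and 8.37 with BMP4, so that the pairs were parallel and the groups did not overlap, but the replicates also lay far apart, and 1 BMP4 array did not detect it. FOS was accordingly not called without the pairing. KLF4 was not called in the 5-array fits without FGF2 replicate 1 (0.95) or BMP4 replicate 1 (0.98), dimmer KLF4 probes gave 0.64 and 0.91, and a second detected probe of FOSL2 gave -0.03. SRF, the serum response factor itself, missed the fold threshold (0.99), and MYC, which was undetected with BMP4, can only be bounded, at 1.13-fold or more in favor of FGF2. With background subtraction (neqc) SRF was called (1.11). In the 5-array fits SRF ranged from 0.60 without FGF2 replicate 1 to 1.38 without FGF2 replicate 2.

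Feedback inhibitors of the ERK cascade were higher with FGF2 in 5 of 16 tested genes and lower in none (median 0.62). The ERK phosphatase gene DUSP6 had log2 intensities of 12.08 and 12.16 with FGF2, 8.0 and 8.68 with BMP4, and 8.43 and 8.70 in -GFs medium. LOC240672, the array's name for Dusp5, which encodes a nuclear ERK phosphatase, read 10.64 and 11.01 with FGF2 against 7.56 and 7.53 with BMP4. In both genes the FGF2 arrays stood apart from all others, with log2 differences of 3.78 for DUSP6 and 3.28 for LOC240672 (adjusted p = 8.37e-15 and 3.88e-14). LOC240672 was near background with BMP4, where 1 array detected it, so that its true difference may be larger (4.84 with neqc). DUSP4 (3.17), the RAS-RAF inhibitor SPRED1 (1.72) and LRIG1 (1.66), which promotes the turnover of receptor tyrosine kinases, were also called. DUSP1 (0.79), the EGF receptor inhibitor ERRFI1 (0.79) remained below the fold threshold. SPRY4, undetected with BMP4, can only be bounded, at 1.36-fold or more in favor of FGF2. Dimmer probes gave smaller differences for DUSP6 (2.22) and for DUSP4 (2.40 and 0.76).

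ETS factors, several of which are both effectors and targets of ERK, had a median difference of 0.33 over 13 tested genes. ETV5 (1.99) and ETV4 (1.77), of the PEA3 subfamily, were called higher with FGF2 and none was called lower. ETV5 read 9.60 and 9.57 with FGF2 and 7.67 and 7.53 with BMP4, with the FGF2 arrays close together and clear of the others, and a dimmer probe differed by 1.08. ETV5 and ETV4 were near background with BMP4, each detected on 1 array, and with neqc their differences were 3.31 and 3.10. ETS2 had a difference of 0.88, and of 1.14 without FGF2 replicate 2 and 1.02 without BMP4 replicate 2 in the 5-array fits.

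The promoters of these genes were searched for letters that ERK- and SMAD-responsive factors are known to bind. RefSeq promoters, the 250 bases before a transcription start in the GRCm38.p6 build, were matched by symbol for 194 genes called higher and 102 called lower, and both strands were read. The CArG box, bound by serum response factor, was found for 8 of the 194 genes higher with FGF2 (4.12%) and for 0 of the 102 lower ones, against 1.55% of the 7443 tested genes matched and 1.62% of all 27025 genes in the table. Besides EGR2, LOC240672 and ZFP36, the 8 were MYO1E (2.01), SCHIP1 (1.75), TPST2 (1.10), PPIF (1.09) and ASGR1 (1.07), named here because of the match. EGR1, EGR3 and ID1 had no promoter entry and were not searched. The promoters of FOS and DUSP6 were searched and held no box in these 250 bases. The other SCHIP1 probe gave 0.30, PPIF lost its call in the 5-array fit without FGF2 replicate 1 (0.97), and ASGR1 without FGF2 replicate 1 (0.99) or BMP4 replicate 1 (0.84). Genes with the AP-1 letters TGANTCA made up 10.8% of the higher, 4.90% of the lower, 5.58% of the tested and 7.82% of all genes. For the ETS core CCGGAA the shares were 21.1%, 13.7%, 26.3% and 13.6%, and for TGACGTCA, the cyclic AMP response element, 2.06%, 1.96%, 3.09% and 1.77%. The SMAD1 and SMAD5 element GGCGCC gave 20.6%, 16.7%, 19.7% and 10.8%, and the SMAD4 box GTCTAGAC was found for 1 of the higher and 0 of the lower genes. These shares were not tested, and a match is a description of the letters only.

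The promoter of SRF, which was not called, also held a CArG box. Sequences are printed for the 3 called ERK feedback and immediate early genes with a box, because they show where the box stands in strongly differing genes. Capitals mark the box. The stretch of Dusp5 (chr19:53528895-53529144, plus strand) and that of Zfp36 (chr7:28379229-28379478, minus strand, written along the gene) are the 250 bases before the start, and that of Egr2 (chr10:67537787-67537816, plus strand) is the box with 10 bases on either side. Dusp5 holds 2 boxes in direct succession, and Egr2 and Zfp36 hold 1 each in the printed stretch.
Dusp5: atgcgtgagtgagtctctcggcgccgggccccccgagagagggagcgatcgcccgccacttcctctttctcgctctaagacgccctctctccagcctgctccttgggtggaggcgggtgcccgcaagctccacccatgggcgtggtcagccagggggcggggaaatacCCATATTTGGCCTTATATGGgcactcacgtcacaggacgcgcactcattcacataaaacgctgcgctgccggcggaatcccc
Zfp36: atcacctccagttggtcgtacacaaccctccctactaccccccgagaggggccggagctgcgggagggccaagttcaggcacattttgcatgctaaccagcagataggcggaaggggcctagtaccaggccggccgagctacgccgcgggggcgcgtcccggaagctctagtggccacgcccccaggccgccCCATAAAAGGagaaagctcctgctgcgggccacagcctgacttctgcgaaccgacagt
Egr2: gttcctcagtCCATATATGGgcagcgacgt

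**Figure D2:**
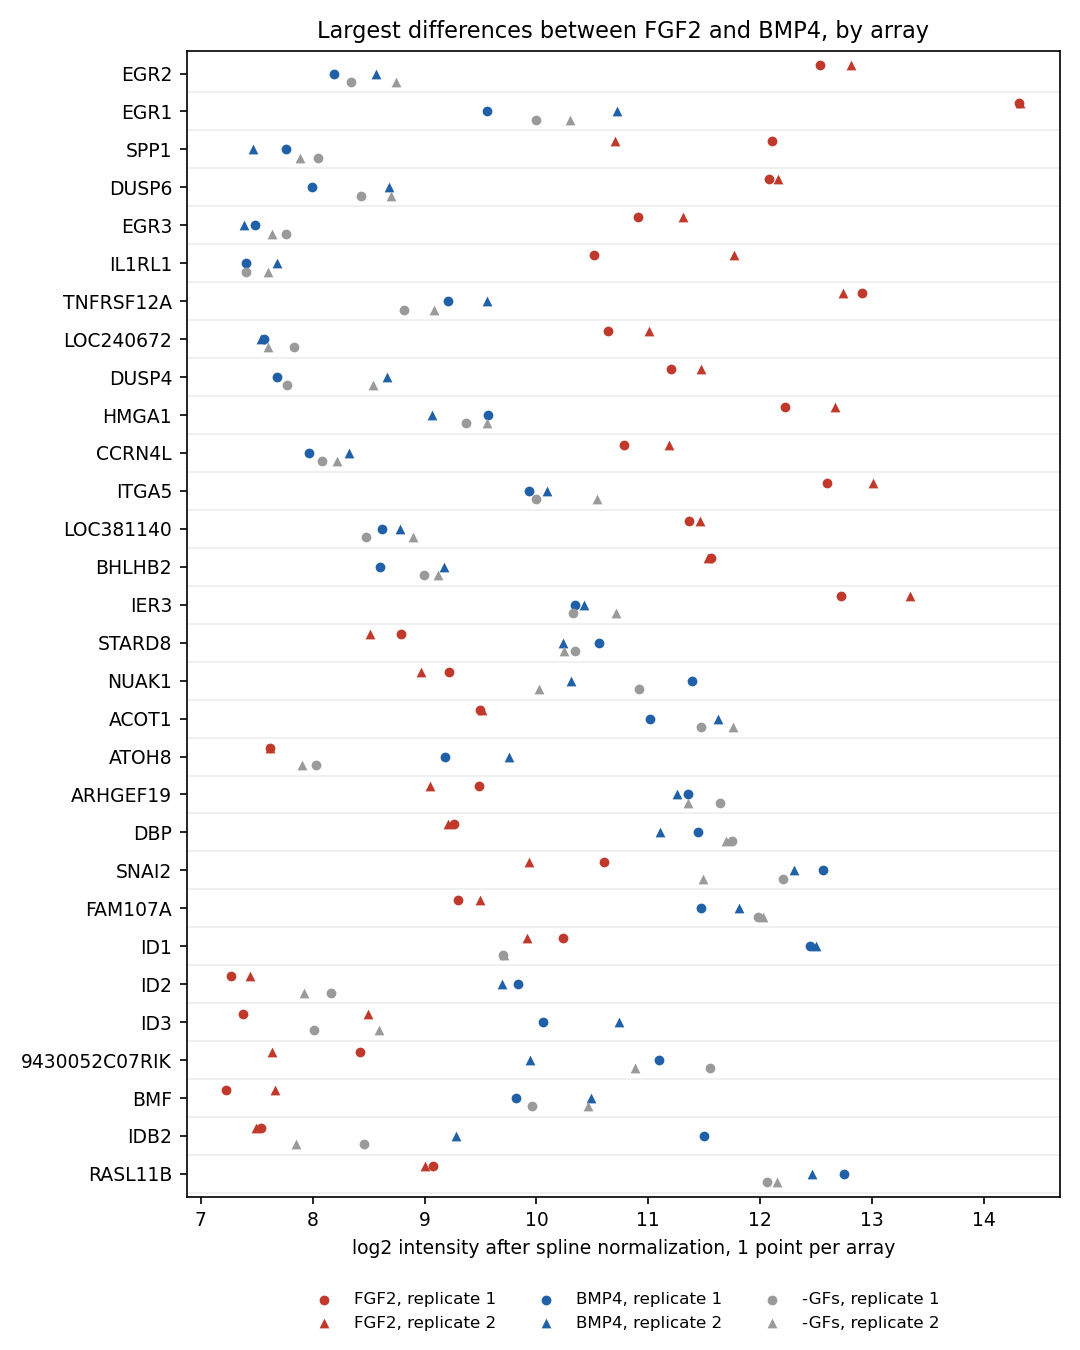
Log2 intensity on each array (x axis) of the 15 named array entries with the largest difference in each direction, ordered from EGR2 (4.29) to RASL11B (-3.56). Red points are FGF2, blue BMP4 and grey -GFs arrays, circles replicate 1 and triangles replicate 2; in each entry shown the red points lie clear of the blue ones.

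Outside these families, the largest differences in favor of FGF2 included SPP1, IL1RL1 and TNFRSF12A, described below, and HMGA1, an architectural chromatin protein (3.13). CCRN4L, also known as nocturnin (2.84, with 1.64 from a dimmer probe), the fibronectin receptor subunit ITGA5 (2.79) and the unnamed transcript LOC381140 (2.71) followed. ITGA5 read 12.59 and 13.01 with FGF2, 9.94 and 10.09 with BMP4, and 10.00 and 10.54 in -GFs medium. HMGA1 read 12.22 and 12.67 with FGF2 against 9.57 and 9.07 with BMP4, while a dimmer HMGA1 probe differed by 0.51. In both genes the FGF2 arrays were the only high ones.

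Genes lower with FGF2 were led by RASL11B, at 9.08 and 9.01 with FGF2 and 12.75 and 12.46 with BMP4, a log2 difference of -3.56 (95% interval -3.86 to -3.26, adjusted p = 8.37e-15). Its -GFs arrays, at 12.06 and 12.15, lay just below those of BMP4. BMF, a pro-apoptotic member of the BCL2 family, read 7.23 and 7.66 with FGF2 against 9.82 and 10.49 with BMP4 (-2.71). The FGF2 arrays were the low ones in both genes, and BMF was detected on only 1 of them. 9430052C07RIK (-2.49), FAM107A (-2.24), the exchange factor ARHGEF19 (-2.04), the acyl-CoA thioesterase ACOT1 (-1.82), the kinase NUAK1 (-1.76) and STARD8, a START domain protein (-1.75), also belonged to the 15 largest. Dimmer probes differed by -0.37 for NUAK1 and by -1.0 for ACOT1.

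The targets of BMP-SMAD signaling were the only described list whose median lay beyond the fold threshold in this direction. Of 19 on the array, 8 were tested, 5 were called lower with FGF2 and none higher (median -1.52). The 5 include Id2, under its array name IDB2, which passed detection through BMP4 alone and so was bound to differ. ID1 had log2 intensities of 12.45 and 12.50 with BMP4, 10.24 and 9.91 with FGF2, and 9.70 and 9.71 in -GFs medium. ID3 read 10.06 and 10.74 with BMP4, 7.38 and 8.50 with FGF2, and 8.01 and 8.59 in -GFs medium. Here the BMP4 arrays were the high ones and the FGF2 arrays lay near the -GFs arrays. The differences were -2.40 for ID1 (95% interval -2.71 to -2.09, adjusted p = 1.18e-11) and -2.46 for ID3 (95% interval -2.78 to -2.15, adjusted p = 9.44e-12), which was near background on 1 FGF2 array and had -3.59 with neqc.

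The Id2 gene is on the array under 2 names, ID2 and IDB2, both undetected with FGF2. ID2 was at 9.83 and 9.69 on the BMP4 arrays, at least 4.54-fold higher than with FGF2, while a dimmer ID2 probe differed by -0.54. IDB2 was at 11.50 and 9.28, the widest gap between replicates among the ID probes, and at least 7.02-fold higher. With limma's trend and robust options its adjusted p was 0.277, and without the pairing 0.0699. ATOH8, a basic helix-loop-helix factor, read 9.18 and 9.76 with BMP4 and 7.62 and 7.61 with FGF2 (-1.85), and ID4 read 8.74 and 9.21 against 7.78 on both FGF2 arrays (-1.19). Both were near background with FGF2, and neqc gave -3.11 for ATOH8 and -2.055 for ID4. Without BMP4 replicate 2, ID4 fell short of the fold threshold in the 5-array fit (-0.92). A second entry for the gene, IDB4, differed by -0.47, and the inhibitory SMAD gene SMAD6 by -0.46 (-0.30 without BMP4 replicate 2). MSX1, a homeobox gene often induced by BMPs, differed by less than 0.01 (95% interval -0.31 to 0.30).

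In 3 genes both treated groups lay above the -GFs arrays, and in UNC5B and HEY1 they also lay near each other. These genes were picked after their values were seen. The netrin receptor gene UNC5B read 11.39 and 11.13 with FGF2, 10.86 and 11.22 with BMP4, and 9.52 and 9.67 in -GFs medium. HEY1, a Notch and BMP target, read 11.15 and 10.72 with FGF2, 10.90 and 10.88 with BMP4, and 10.06 on both -GFs arrays. The groups overlapped in both genes, and the 95% interval of the difference was -0.11 to 0.54 for UNC5B and -0.26 to 0.36 for HEY1. CTGF, a matricellular protein of the CCN family, read 10.87 and 9.93 with FGF2, 9.86 and 10.02 with BMP4, and 9.27 and 8.38 in -GFs medium. CTGF differed by 0.46 (adjusted p = 0.0661), which passed the adjusted p but not the fold threshold. Its interval, 0.08 to 0.83, allows anything from near equality to a difference close to the fold threshold. Without BMP4 replicate 1 the 5-array fit gave -0.08 for CTGF and -0.05 for HEY1, and without FGF2 replicate 1 it gave -0.04 for UNC5B and -0.16 for HEY1. The largest values in the 5-array fits were 0.99 for CTGF, 0.48 for UNC5B and 0.26 for HEY1.

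**Figure D3:**
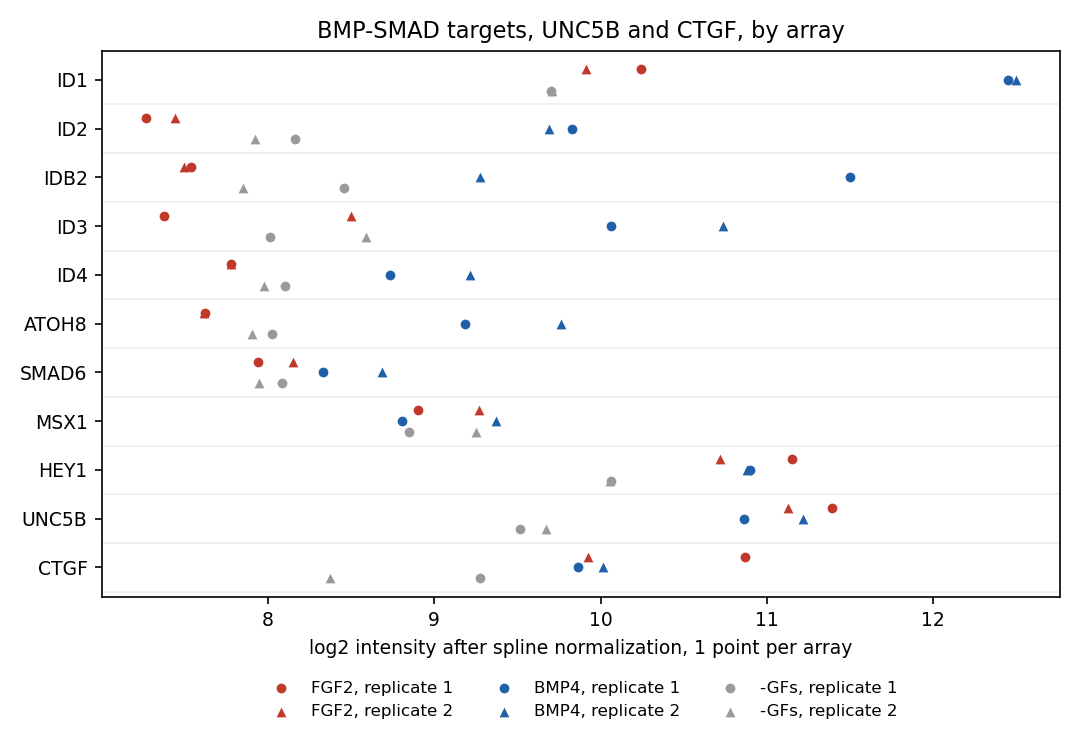
Log2 intensity on each array (x axis) of the tested BMP-SMAD targets, with ID2 and IDB2 as 2 names of a single gene, and of UNC5B and CTGF. Red points are FGF2, blue BMP4 and grey -GFs arrays, circles replicate 1 and triangles replicate 2; the blue points of the ID genes and ATOH8 lie above all others, whereas those of MSX1, HEY1, UNC5B and CTGF lie among or next to the red ones.

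The ligands, receptors and antagonists of the BMP pathway itself were not called in any of 19 tested genes (median -0.12). These are too few genes to set apart from the 3.55% called among all genes tested. The BMP4 gene differed by 0.16 (95% interval -0.14 to 0.46) and the receptor gene BMPR1A by -0.03 (95% interval -0.34 to 0.28). The largest differences were those of the extracellular modulator BMPER (-0.83, and -1.08 without FGF2 replicate 1), the receptor ACVR2B (-0.61, and -0.39 without BMP4 replicate 1) and follistatin, FST (0.90, and 1.02 without FGF2 replicate 1), an antagonist that binds activins.

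The TGFβ pathway contained 5 called genes among 18 tested (median 0.37), 4 of them higher with FGF2. TGFB1, the ligand, read 10.67 and 11.11 with FGF2, 9.37 and 9.56 with BMP4, and 9.63 and 9.86 in -GFs medium. SMAD3, which carries the signal of the ligand to the nucleus, read 13.25 and 13.60 with FGF2, 11.38 and 11.44 with BMP4, and 11.81 and 12.08 in -GFs medium. In both genes the FGF2 arrays were the highest and the BMP4 arrays the lowest of the 3 conditions. The log2 difference was 1.43 for TGFB1 (95% interval 1.12 to 1.73, adjusted p = 7.26e-08) and 2.01 for SMAD3 (95% interval 1.71 to 2.32, adjusted p = 2.13e-10). THBS1, thrombospondin, an activator of latent TGFβ (1.43), and the type I receptor TGFBR1 (1.30) completed the group. The replicates of TGFBR1 lay far apart, at 12.76 and 11.77 with FGF2 and 11.52 and 10.41 with BMP4, so that it was not called without the pairing, and a dimmer probe differed by 0.36. TGFBR2 (0.47), TGFB2 (0.38, and 0.21 without BMP4 replicate 1) and INHBA (0.65) were not called, and the SMAD corepressor SKI differed by -0.72.

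TGFB3 went the other way, with 9.22 and 8.76 under FGF2 and 9.97 and 10.38 under BMP4 (-1.19, 95% interval -1.54 to -0.84). The arrays did not overlap, but in the 5-array fits the difference was -0.97 without FGF2 replicate 2 and -0.75 without BMP4 replicate 2, below the fold threshold. TGFB1 was thus higher and TGFB3 lower in FGF2-treated stroma.

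In the FGF axis, the receptor FGFR2 read 10.93 and 11.08 with FGF2, 12.63 and 12.69 with BMP4, and 12.45 and 12.15 in -GFs medium. All FGF2 arrays were low and the BMP4 arrays were the highest, a difference of -1.66 (95% interval -1.95 to -1.36, adjusted p = 5.25e-09). A dimmer FGFR2 probe differed by -0.97, and FGFR1, another receptor of FGF2, by -0.10 (95% interval -0.40 to 0.20). Of 15 ligands, receptors and proteoglycans tested (median -0.21), FGF18 (1.36, detected on 1 BMP4 array), FGF7 (1.28) and the heparan sulfate carrier SDC1 (1.02) were called higher. FGF7, a ligand of the epithelial splice form of FGFR2, read 12.22 and 12.13 with FGF2 against 11.29 and 10.50 with BMP4. It was not called without FGF2 replicate 2 (0.69), nor was SDC1 without BMP4 replicate 2 (0.82), both in the 5-array fits, and the other probe of SDC1 gave 0.71 and the mean of its probes 0.87. The FGF2 gene itself was detected with FGF2 alone, a difference of at least 1.55-fold, and FGF10, a further ligand of FGFR2, differed by -0.75.

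Secreted angiogenic and stromal factors were called in 10 of 28 tested genes, 8 higher and 2 lower with FGF2 (median 0.26). The 8 include HBEGF, LIF and IL11, which passed detection through FGF2 alone and so were bound to differ. SPP1, osteopontin, read 12.11 and 10.70 with FGF2 and 7.76 and 7.47 with BMP4, where it was detected on 1 array (3.79, 95% interval 3.41 to 4.17). The chemokines CCL2 (2.20) and CCL7 (1.68), which attract monocytes, and the nerve growth factor gene NGFB (1.40) were also higher. SPP1 differed widely between the FGF2 replicates, but both were above every BMP4 array. HBEGF, an EGF receptor ligand, LIF and IL11, related cytokines that share a receptor subunit, were undetected with BMP4 and were higher with FGF2 by a factor of at least 2.59, 2.28 and 1.51, the last below the fold threshold. IL11 lost its call without BMP4 replicate 1 (0.89) in the 5-array fit, and a dimmer LIF probe gave 0.94.

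VEGFA, the main inducer of blood vessel growth, read 12.13 and 11.89 with FGF2, 11.02 and 10.76 with BMP4, and 10.74 and 10.69 in -GFs medium. The FGF2 arrays were the high ones, with a difference of 1.12 (95% interval 0.82 to 1.42, adjusted p = 2.35e-06), and a second probe gave 1.29. The TEK ligands went the other way. ANGPT2 read 9.10 and 9.88 with FGF2 and 10.33 and 10.91 with BMP4 (-1.13), and lost its call without the pairing and, at -0.96, without FGF2 replicate 1 in the 5-array fit. ANGPT4 read 7.29 and 7.97 with FGF2 and 7.87 and 9.40 with BMP4 (-1.01), so that FGF2 replicate 2 lay above BMP4 replicate 1. Its call was lost without the pairing, and in the 5-array fits without FGF2 replicate 2 (-0.63) or BMP4 replicate 2 (-0.74). FIGF, also known as VEGFD (-0.64), and the stromal chemokine CXCL12 (-0.52) had negative differences, CSF1 (0.97, and from 0.62 without FGF2 replicate 2 to 1.33 without FGF2 replicate 1) and PDGFA (0.93, and 1.01 without BMP4 replicate 2) positive ones. HGF had 0.08 and IGF1 -0.26.

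Cytokine receptors and response genes added 5 of 17 tested genes, all higher with FGF2 (median 0.48). IL1RL1, a receptor of the interleukin 1 family, read 10.51 and 11.77 with FGF2 and 7.40 and 7.68 with BMP4, where 1 of 2 arrays detected it (3.60). TNFRSF12A, the receptor of the cytokine TWEAK, read 12.91 and 12.74 with FGF2 against 9.21 and 9.56 with BMP4 (3.44). Neither gene overlapped between the groups. The cytokine signaling inhibitors CISH (2.24) and SOCS3 (1.77) and the prostaglandin E synthase PTGES (1.23) were called too, PTGES with a further probe at 0.70. CISH read 10.80 and 11.30 with FGF2, 8.73 and 8.90 with BMP4, and 9.50 and 9.59 in -GFs medium, hence lowest with BMP4. The hyaluronan synthase HAS2 differed by 0.65, but by 0.34 without FGF2 replicate 2.

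Genes of axon guidance, which also guide vessels, had a median of -0.13 over 26 tested, with 2 called higher and none lower. By the adjusted p alone, 3 were higher and 8 lower with FGF2, against 16.8% and 18.1% of all genes tested. SEMA7A, a membrane-anchored semaphorin, read 8.55 and 8.89 with FGF2 and 7.30 and 7.67 with BMP4 (1.23, 95% interval 0.93 to 1.53, adjusted p = 5.83e-07). It was detected on 1 BMP4 array and on neither -GFs array, and its difference was 2.41 with neqc. SEMA4B was called at 1.12, and at 0.90 it was not without BMP4 replicate 2 in the 5-array fit. PLXNA2, a semaphorin receptor (0.96, and 1.13 without FGF2 replicate 2), the ephrin EFNA1 (-0.81) and the VEGF and semaphorin co-receptor NRP1 (-0.29) were not called. With neqc EFNA1 (-1.76) and PLXNA2 (1.12) were.

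WNT pathway genes were tested in 16 of 42 cases, and 5 of the 16 were lower with FGF2, none higher (median -0.44). The receptor FZD2 read 7.86 and 7.65 with FGF2, 9.36 on both BMP4 arrays, and 9.46 and 9.64 in -GFs medium. RSPO2, a secreted enhancer of WNT signaling, read 8.10 and 8.01 with FGF2, 9.49 and 9.54 with BMP4, and 8.94 and 9.16 in -GFs medium. For both genes the FGF2 arrays were the low ones, with differences of -1.61 (adjusted p = 1.03e-08) and -1.46 (adjusted p = 4.32e-08). With neqc these differences were -2.63 for FZD2 and -2.16 for RSPO2. The ligand WNT5B (-1.14), the feedback inhibitor AXIN2 and RSPO3 (-1.08) were nearer to the threshold. In the 5-array fits WNT5B lost its call without FGF2 replicate 1 (-0.94), AXIN2 without FGF2 replicate 2 (-0.83) or BMP4 replicate 2 (-0.88), and RSPO3 without FGF2 replicate 1 (-0.69) or BMP4 replicate 1 (-0.79). RSPO3 was also lost without the pairing. AXIN2 passed detection through BMP4 alone, and its bound, at least 1.69-fold lower with FGF2, is below the fold threshold. FZD7 (-0.63), the co-receptor LRP5 (-0.62), CTNNB1, which encodes β-catenin (-0.47), and the antagonist SFRP1 (-0.41, and -0.23 without FGF2 replicate 1) had smaller differences, while WNT5A had 0.65 and FZD1 0.51 (0.30 without FGF2 replicate 2).

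Of the Notch pathway, 6 genes were tested and none was called (median -0.14), too few to set apart from the 3.55% of all genes tested. HEY2, a target gene, was undetected with FGF2, and its difference can only be bounded, at 1.34-fold or more in favor of BMP4.

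Of the Snail, Twist and Zeb factors, which drive epithelial-mesenchymal transition, 7 were tested and SNAI2 was the only call (median 0.37). By the adjusted p alone, 4 were higher and 1 lower with FGF2, against 16.8% and 18.1% of all genes tested. SNAI2 read 10.60 and 9.93 with FGF2, 12.56 and 12.31 with BMP4, and 12.20 and 11.49 in -GFs medium. SNAI1, its paralog, read 11.90 and 12.09 with FGF2, 10.87 and 11.22 with BMP4, and 10.37 and 10.57 in -GFs medium. SNAI2 was therefore low on both FGF2 arrays (-2.16, 95% interval -2.47 to -1.85, adjusted p = 8.99e-11), while the difference of SNAI1 was 0.95 (95% interval 0.65 to 1.25), just short of the fold threshold, and 1.03 without BMP4 replicate 2. A dimmer SNAI1 probe differed by 0.32. TWIST1 had 0.94 and ZEB1 0.42, with -0.02 without FGF2 replicate 2 in the 5-array fit.

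**Figure D4:**
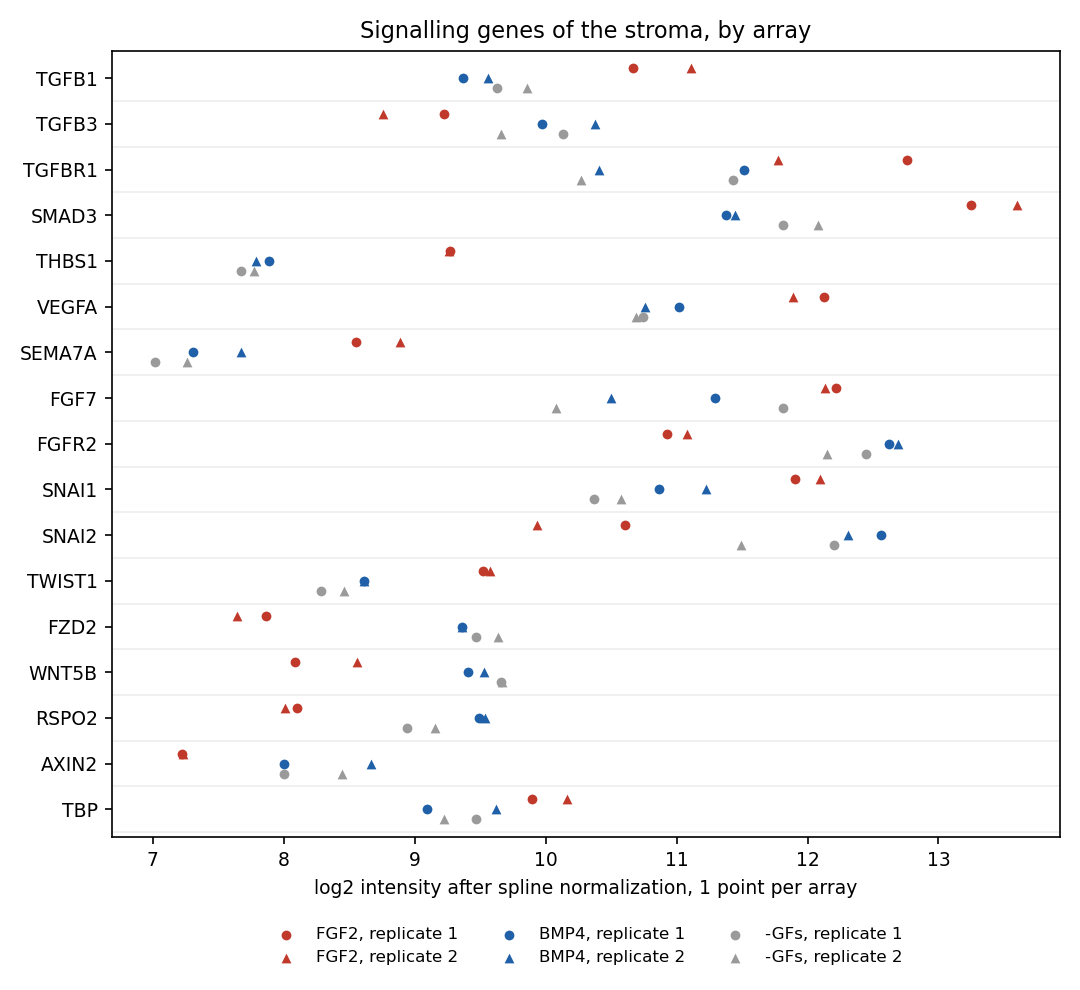
Log2 intensity on each array (x axis) of ligands, receptors and transcription factors discussed in the text, with the PCR reference gene TBP. Red points are FGF2, blue BMP4 and grey -GFs arrays, circles replicate 1 and triangles replicate 2; TGFB1, SMAD3, VEGFA and SEMA7A were higher with FGF2, whereas FGFR2, SNAI2, FZD2 and RSPO2 were lower.

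TBP, the reference gene of the PCR assays, read 9.89 and 10.16 with FGF2 and 9.09 and 9.62 with BMP4. The groups did not overlap and differed by 0.67 (95% interval 0.37 to 0.98, adjusted p = 0.00122), below the fold threshold (0.41 without BMP4 replicate 1), and 3 dimmer probes gave between 0.29 and 0.46. Of 10 reference genes tested (median 0.17), the transferrin receptor TFRC was called (1.18, with 0.98 without BMP4 replicate 2 in the 5-array fit), GAPDH differed by 0.13 and ACTB by 0.22.

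Ribosome biogenesis genes differed widely. Of 30 tested genes, 11 were higher with FGF2 and none lower (median 0.74). The adjusted p alone was passed by 25 in this direction, against 16.8% of all genes tested. NOL5A, also known as Nop56, and NOL5, known as Nop58, core proteins of the small nucleolar particles that methylate ribosomal RNA, differed by 1.44 and 1.21. NOL5A read 11.95 on both FGF2 arrays and 10.27 and 10.76 with BMP4. WDR43 (1.19), the nucleolar GTPase GNL3 (1.16) and the helicase DDX21 (1.14) kept an absolute difference over 1 in all 5-array fits. RRP9 (1.21), RRP12 (1.08), NOL1 (1.06), GRWD1 (1.02), the RNA polymerase I subunit POLR1B (1.01) and NOC3L (1.01) lay closer to the threshold and lost the call in at least 1 of these fits, with values down to 0.98, 0.96, 0.78, 0.92, 0.89 and 0.94. RRP12 and GRWD1 were also lost without the pairing, and NOC3L with median scaling (0.99). Other probes of NOL1 gave 0.22 and 0.95, and the mean of its probes 0.74, below the threshold. TSR1 had the lowest value of the list (-0.80), and its other probe gave 0.92.

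Metabolic lists moved in part. In cholesterol synthesis and uptake, 3 of 21 genes were higher with FGF2 and none lower (median 0.28). These were the sterol enzymes SC4MOL (1.59), HSD17B7 (1.56) and CYP51 (1.04), the last losing its call without FGF2 replicate 2 (0.96) or BMP4 replicate 1 (1.0) in the 5-array fits. SQLE, a further sterol enzyme (0.83, and 1.07 without BMP4 replicate 1), was not called. Among 21 ATF4 targets and tRNA synthetases (median 0.30), CHAC1, which degrades glutathione (1.83), and ATF4 itself (1.01) were higher. CHAC1 read 10.14 and 11.79 with FGF2 and 8.87 and 9.41 with BMP4 and was not called without the pairing, and ATF4 was not called with median scaling (0.99) or, in the 5-array fits, without FGF2 replicate 1 (0.87) or BMP4 replicate 1 (0.76). Of 15 glycolysis and hypoxia genes (median 0.03), the glucose transporter SLC2A1 was higher (1.24) and NDRG1 lower (-1.13), the latter also under its second name NDRL (-1.24). NDRG1 was not called without FGF2 replicate 2 (-0.78) or BMP4 replicate 2 (-0.95) in the 5-array fits, nor NDRL without the pairing.

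FOXO factors activate genes of growth arrest and cell death when growth factor signaling is low. Of 17 FOXO genes and targets tested, 5 were lower with FGF2 and none higher (median -0.60). After BMF came PIK3IP1, an inhibitor of PI3K (-1.48), the stress protein SESN1 (-1.24), the cyclin CCNG2 (-1.13) and CITED2, a transcriptional coregulator (-1.06). PIK3IP1 read 9.44 and 9.0 with FGF2, 10.90 and 10.49 with BMP4, and 10.99 and 10.73 in -GFs medium, with the FGF2 arrays as the low ones. CCNG2 (-0.95 without BMP4 replicate 2) and CITED2 (-0.87 without FGF2 replicate 1 and -0.89 without BMP4 replicate 1) fell below the threshold in the 5-array fits, and dimmer probes differed by -0.47 for SESN1 and by -0.52 for CITED2. The ubiquitin ligase FBXO32 was undetected with FGF2 and differed at least 1.45-fold in favor of BMP4. BCL2L11 (-0.75) and TXNIP (-0.60, and -0.36 without BMP4 replicate 1) were not called. Their dimmer probes differed by -0.41 for BCL2L11 and by -0.92 for TXNIP. Differences of the other sign, below the fold threshold, were those of GADD45A, a stress gene (0.97, and 1.13 without FGF2 replicate 1), and KLF9 (0.80, and 1.03 without FGF2 replicate 1). By the adjusted p alone, 4 genes of the list passed in that direction and 9 in the other, against 16.8% and 18.1% of all genes tested.

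In the BCL2 family, 12 genes were tested and BMF was the only call (median -0.04), against 3.55% called among all genes tested. The survival gene MCL1 (0.19) was not called, and BCL2, undetected with BMP4, can only be bounded, at 1.10-fold or more in favor of FGF2. The clock list had 11 tested genes (median 0.32), with BHLHB2, a repressor also known as Bhlhe40, higher (2.66) and DBP, a clock output factor, lower (-2.04). DBP read 9.26 and 9.21 with FGF2 against 11.45 and 11.11 with BMP4, and its relative TEF differed by -0.82 (-1.04 without FGF2 replicate 1), while PER2 (0.34, and 0.21 without FGF2 replicate 1) and NR1D1 (0.52) had small positive values. No G1 cyclin or CDK inhibitor was called (16 tested, median -0.12), too few to set apart from the 3.55% of all genes tested. The cyclins CCND1, CCND2 and CCND3 differed by 0.62, 0.55 and 0.64, and the inhibitor CDKN2C by -0.78. Dimmer probes gave 0.79 and 0.92 for CCND1, 0.65 and 0.99 for CCND2, and 0.33 for CCND3.

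**Figure D5:**
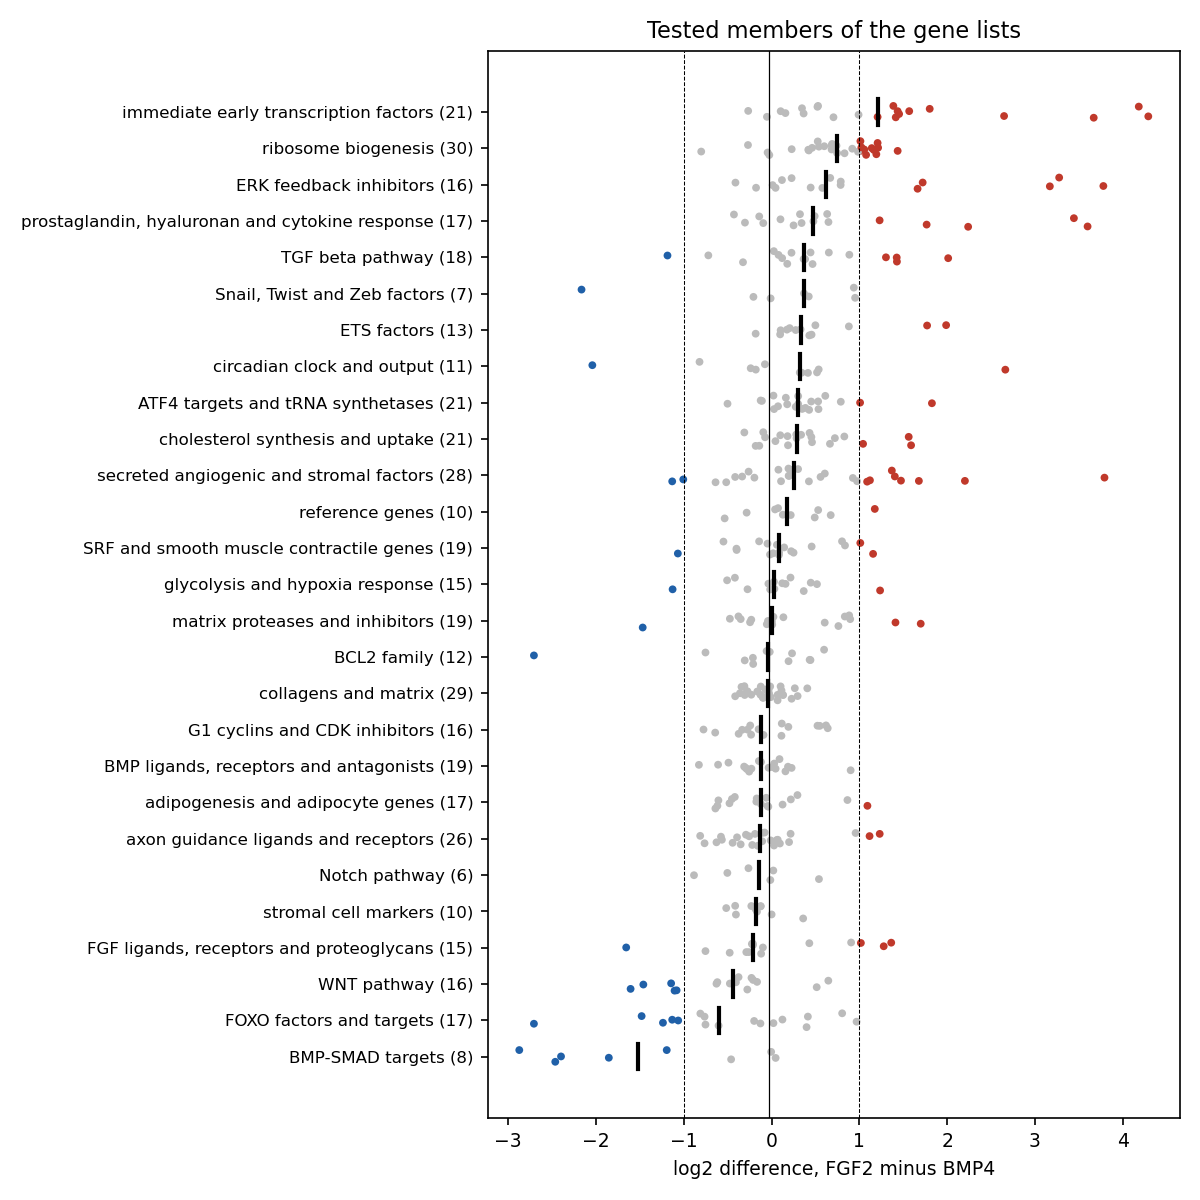
Log2 difference, FGF2 minus BMP4 (x axis), of each tested member of the gene lists with at least 6 tested members, the number being given in brackets. Red members were called higher and blue ones lower with FGF2, black bars are list medians, from 1.21 for the immediate early factors to -1.52 for the BMP-SMAD targets, and the thin solid line is the median of all genes tested (-0.02).

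The listed collagen and matrix genes had small differences, and whether their levels were the same was not tested. None of the 29 tested was called (median -0.04), against 3.55% of all genes tested, and their differences ranged from -0.41 to 0.41. By the adjusted p alone, 1 was higher and 3 lower with FGF2, against 16.8% and 18.1% of all genes tested. Among 19 proteases and inhibitors (median 0.01), the urokinase receptor PLAUR (1.70) and TIMP1, an inhibitor of metalloproteinases (1.41), were higher with FGF2, and MMP11 was lower (-1.47). TIMP1 read 14.94 and 15.29 with FGF2 and 13.63 and 13.79 with BMP4. The plasminogen activators PLAU (0.90, and 1.06 without BMP4 replicate 2) and PLAT (0.83) did not reach the fold threshold. Of 19 SRF and smooth muscle genes (median 0.08), CYR61 (1.16, detected on 1 BMP4 array) and ZYX (1.01) were higher and LMOD1 lower (-1.07), whereas the contractile genes ACTA2 (0.06) and TAGLN (0.22) were not called. Dimmer ACTA2 probes gave larger differences of 0.31, 0.45 and 0.51. CYR61 rested on a single probe, 2 others giving 0.30 and 0.18, and was not called without BMP4 replicate 1 (0.87). ZYX was lost with median scaling (0.96) and without FGF2 replicate 2 (0.92) or BMP4 replicate 2 (0.96), and LMOD1 without FGF2 replicate 2 (-0.94) or BMP4 replicate 2 (-0.97), in the 5-array fits.

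The arrays matched the labelled cell type. All 10 stromal markers were detected on all 4 arrays and none was called (median -0.17), their summed intensity being 92914 and 84160 with FGF2 and 106882 and 107558 with BMP4. Among them, COL1A1 differed by -0.12. Of 6 endothelial markers, 4 were detected on no array, CDH5 and PECAM1 among them, and TEK (-0.56, and -0.33 without BMP4 replicate 2) and KDR (-0.03) were tested. The leukocyte marker PTPRC and 3 other haematopoietic markers of 5 were not detected, CSF1R being the exception, nor were 3 of 4 pluripotency markers, POU5F1 being near the background, and 2 of 3 neural markers. PA6 cells are also preadipocytes. Of 5 preadipocyte markers, DLK1 and PPARG were detected on all 4 arrays, CEBPA and ADIPOQ on 2 and FABP4 on none. DLK1 differed by -0.04 (95% interval -0.34 to 0.26), but its signal was close to the brightest on each array and cannot show whether the level was the same. PPARG, the main adipogenic factor, differed by -0.12 (95% interval -0.42 to 0.18). ADIPOQ, an adipocyte hormone, had intensities of 158 and 1658 with FGF2 and 149 and 2372 with BMP4, thus high in replicate 2 of both groups and below detection in replicate 1. Of 17 adipogenic genes tested (median -0.12), the desaturase SCD1 was called (1.09, with 0.97 without FGF2 replicate 1 and 0.94 without BMP4 replicate 1 in the 5-array fits), and CEBPB had 0.86, with 1.09 without BMP4 replicate 1. What the higher ADIPOQ of replicate 2 contributes to other genes was not tested.

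Set beside the -GFs arrays, which both treatments share as a reference, the called genes mostly lay where BMP4 was. The -GFs mean was nearer to the BMP4 mean than to the FGF2 mean in 267 of the 268 genes higher with FGF2 and in 131 of the 142 lower ones, 97.1% of the called genes, against 75.1% of all genes tested. The single exception among the higher genes was IBRDC3 (1.09, and 0.97 without FGF2 replicate 1 in the 5-array fit). Its -GFs mean lay near the middle, FGF2 differing from it by 0.54 and BMP4 by -0.56. The 11 exceptions among the lower genes were entries with BMP4 above both other conditions: ID1, ID2, IDB2, ID3, ID4 and ATOH8, and, named because of this position, IRF5 (-1.30), PDZRN3 (-1.29), TIAM2 (-1.13), PRKAG2 (-1.12) and A730054J21RIK (-1.02). IRF5, an interferon regulatory factor detected on 1 FGF2 array, had a mean of 8.95 with BMP4, 7.65 with FGF2 and 7.85 in -GFs medium. For some of the 11 the -GFs mean was also nearer the middle. FGF2 and BMP4 differed from it by -0.54 and 0.58 for PRKAG2, -0.46 and 0.67 for TIAM2, and -0.55 and 0.74 for PDZRN3. For A730054J21RIK these values were -0.34 and 0.68. A dimmer PDZRN3 probe differed by -0.36 between FGF2 and BMP4. In the 5-array fits the call was lost for TIAM2 (-0.97) and A730054J21RIK (-0.88) without FGF2 replicate 1, for A730054J21RIK (-0.92) without BMP4 replicate 1, and for PRKAG2 (-0.94) without FGF2 replicate 2.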

How the data were processed

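RNA of pure PA6 cultures after 3 h, 2 replicates per condition, had been hybridized to Illumina MouseWG-6 v2.0 arrays. The authors deposited the bead intensity of 45281 probes without normalization between arrays, each with a detection p-value, and the submitters' processing notes name GenomeStudio 2011.01. A further 9 columns without a heading and 6 leftover lines were not used. The median intensity was 161.5 and 162.6 with FGF2 and 153.4 and 167.8 with BMP4, with 16124, 15844, 16330 and 15726 probes detected (p under 0.05), and the number of arrays limits the precision. With 2 arrays in each group and the pairing ignored, the smallest exact two-sided permutation p is 0.333.

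The cubic spline normalization of the study's methods was written anew (R 4.3.3) and maps 452 quantiles onto the mean of the 4 arrays compared, and the -GFs arrays were mapped onto the same target for description only. On the log2 scale, 15631 probes passed detection on both arrays of either group. The probe of largest mean stands for each of 11545 genes, 3040 of which had several. A gene that passes through 1 group alone, as did 12 called genes undetected with BMP4 and 6 undetected with FGF2, is bound to differ. limma 3.58.1 (lmFit, eBayes) was fitted with the replicate number as a block (1 residual and 22.99 prior degrees of freedom), and every adjusted p is limma's, with the Benjamini-Hochberg method applied to all genes tested, unless an alternative is named. Its 95% intervals are not adjusted for the number of genes. The pairing comes from the labels, and the same-numbered arrays deviated from their group means together (r = 0.587 across genes, from 2 pairs). The procedure was tested on simulated data.

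Gene names are those of the array, of which 22610 of 30854 were matched to current symbols of RefSeq for the gene lists. The 383 called names so matched stand for 373 distinct genes. The genes named are the 15 called entries with the largest difference in each direction, all called list members, further list members by size or role, genes assayed by PCR and TBP, and others are said to be chosen after their values were seen. Members and lists were chosen with earlier results of these data known. Alternatives concerned the normalization, detection filter, probes, threshold, test, pairing and single arrays.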

Additional observations from a re-analysis of the deposited data

How the results depend on the processing

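The counts of 268 genes higher and 142 lower with FGF2 stayed within 1.5 times under quantile normalization, median scaling, a spline onto all 6 arrays, 4 other detection filters, the mean of the probes, every probe, an adjusted p under 0.05, the trend and robust options, and all 6 arrays with or without the replicate block. Without the replicate block they were 253 and 129. With neqc, which subtracts background, they were 569 and 411. It called 18 named genes that had not been called (SRF 1.11, CSF1 1.05, GADD45A 1.26, PLXNA2 1.12, TWIST1 1.25, FGF2 2.01, PLAU 1.12, SPRY4 1.58, INHBA 1.01, HAS2 1.12, MYC 1.07, IDB4 -1.08, TEK -1.18, LRP5 -1.07, FBXO32 -1.74, TSR1 -1.18, EFNA1 -1.76, HEY2 -1.93), of which FGF2, SPRY4, MYC, FBXO32 and HEY2 were undetected in 1 group and have no exact value, and the difference grew more than 1.5 times for 25 of the 112 called ones, such as ETV5 to 3.31. With neqc and no replicate block, chosen after seeing the data, the counts were 388 and 266. Without a threshold on the fold, 1937 and 2084 genes passed. The methods' t-test called 196 and 96 genes with an unadjusted p under 0.05 and an absolute log2 difference over 1. After Benjamini-Hochberg correction it called 0 and 0, with 877 and 913 genes at an unadjusted p under 0.05 without the threshold on the fold, while limma had 2106 and 2329 such genes. Leaving out each array in turn gave 22 to 329 genes higher and 5 to 180 lower. The fits without an FGF2 array estimate the spread from the BMP4 pair alone. With the -GFs arrays and the replicate block kept, chosen after seeing the data, the range was 266 to 298 higher and 139 to 179 lower. Of 112 named genes that were called, 103 kept the call without the replicate block and 78 in all 4 fits with 5 arrays, but 16 in all 4 fits with 3 arrays. The direction of these genes reversed only through the choice of probe, for EGR3 (-0.0428 with probes detected on all 4 arrays and with every probe) and FOSL2 (-0.0313 with every probe). Among the named genes that were not called, the sign changed with every probe for ACTB -0.383, BMPR1A 0.0051, CTNNB1 0.0596, DLK1 0.0197, PPARG 0.0596, TSR1 0.924, with the mean of the probes for TSR1 0.0613, and with neqc, with or without the replicate block, for MSX1 0.0019. Leaving out each array in turn, the fits with 3 arrays spanned zero for ACTA2 -0.0598 to 0.182, BMP4 -0.24 to 0.557, COL1A1 -0.382 to 0.137, COL3A1 -1.0 to 0.172, CTGF -0.0162 to 0.929, FGFR1 -0.225 to 0.0279, HEY1 -0.168 to 0.261, HGF -0.403 to 0.559, KDR -0.309 to 0.251, MSX1 -0.286 to 0.277, PPARG -0.365 to 0.124, BMPR1A -0.467 to 0.399, DLK1 -0.12 to 0.0461, NRP1 -0.61 to 0.0271, CSF1R -0.1 to 0.357. In the fits with 5 arrays the sign changed without FGF2 replicate 1 for ACTA2 -0.112, BMPR1A 0.155, COL1A1 0.167, HEY1 -0.162, PPARG 0.0351, UNC5B -0.0429, without FGF2 replicate 2 for DLK1 0.0135, FGFR1 0.0001, HGF -0.303, KDR 0.251, MSX1 0.0565, ZEB1 -0.0205, without BMP4 replicate 1 for ACTA2 -0.0416, BMPR1A 0.084, COL1A1 0.154, CTGF -0.0804, FGFR1 0.0635, HEY1 -0.0542, and without BMP4 replicate 2 for CSF1R -0.0853, DLK1 0.0039, HGF -0.0633, KDR 0.0425, MSX1 0.0853. These fits use fewer samples, and the cause of the other changes was not tested. None of 32 list medians changed sign under another normalization. Signals near background limit the dim genes, whose differences are known only as bounds where both arrays of a group did not detect them, and may be too small where 1 did not.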
